A study of Mus musculus with 2 samples.

Results

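Cxcr5, Ccr7, Ccr6 and Gpr183 encode 4 chemoattractant receptors that place B cells in lymphoid tissue. They are 4 of the 32285 genes in the deposited single-cell table. The choice was by name, for what they are known to do, and not by their values, although earlier results of these data were known. Live CD45+ immune cells were sorted from the colons of female mice aged 9 months, either 5XFAD mice or their wild-type (WT) littermates. Each genotype is 1 library that pools the cells of 3 mice, made with the 10x Chromium 3′ chemistry, which counts unique molecular identifiers (UMIs) at the 3′ end of transcripts. 5XFAD mice carry mutant human transgenes of familial Alzheimer disease under the Thy1 promoter, which drives them mainly in neurons. The labels name no treatment and no other allele in either group. Because each genotype is a single pool, differences between them have no replicate check and were not tested. The 95% intervals cover counting error only, and genotype, pool and preparation cannot be told apart.

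All 4 products are receptors coupled to G proteins. CXCR5 follows CXCL13, a chemokine of the stromal cells of the B cell follicle, and brings B cells and follicular helper T cells into it. CCR7 follows CCL19 and CCL21 of the T cell zone, and naive lymphocytes use it to enter and cross lymphoid organs. CCR6 follows CCL20, which the epithelium over gut lymphoid follicles makes, and is known on B cells, on lymphoid tissue inducer cells and on T cells that make IL-17. GPR183, also called EBI2, follows an oxysterol made from cholesterol by the enzymes of Ch25h and Cyp7b1. It takes activated B cells to the outer follicle and innate lymphoid cells to lymphoid structures of the colon.

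The libraries hold 3443 cells each, with 18604847 UMIs in 5XFAD and 17939499 in WT. The 17 deposited clusters carry numbers and no names. Clusters 0 to 7 all held the 8 B cell markers used. Of them, clusters 0 to 5 are taken as the B cell-like class, with 2364 cells in 5XFAD and 2538 in WT, and cluster 6, led by Igha and Jchain, and cluster 7, led by Egr1, Egr3 and Egr2, are given by number. By their markers, clusters 9 and 16 are ILC2-like and ILC3-like, clusters 8 and 10 regulatory T cell-like and T cell-like, and cluster 13 gamma delta T cell-like. Cluster 12 is NK or ILC1-like, and clusters 11, 14 and 15 are also given by number. A total of 3 cell barcodes occur in both libraries. The most genes found in a cell were 2498 in 5XFAD and 2697 in WT, so an upper limit on genes may differ between them.

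Cxcr5 and Ccr6 were highest in B-lineage clusters and Gpr183 outside them, while Ccr7 was highest in cluster 14 and next in the B lineage. Levels are CPM, the UMIs of a gene scaled to all UMIs of the cells summed, and cover both libraries where none is named. Ccr7 peaked in cluster 14 (921 CPM), led by Lef1, Igfbp4 and Cd8b1, with an interval that overlapped that of cluster 5 (851 CPM). It was at 490 CPM or more in each B-lineage cluster and at 373 CPM or less in the remaining clusters. Gpr183 peaked in ILC3-like cells (1701 CPM). All 4 were present in every B-lineage cluster, so B cells do carry all 4, but Ccr7 and Gpr183 are not confined to them. Levels are compared between cells and not between genes, since 3′ counts give no level per length.

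**Figure D1:**
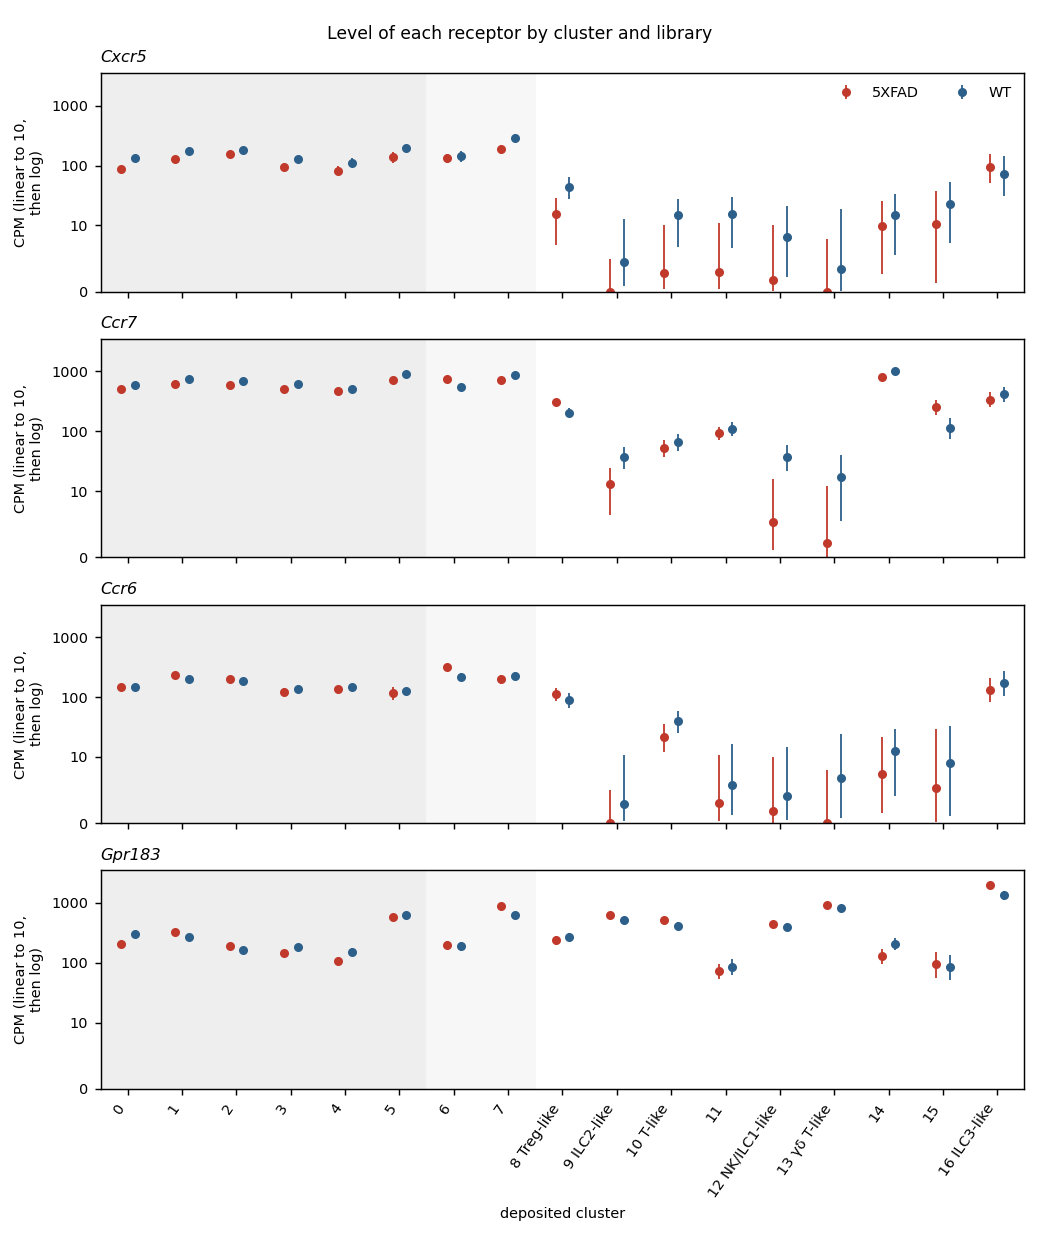
CPM of each receptor (y axis, linear to 10 and logarithmic above) in the 17 deposited clusters (x axis), in the 5XFAD library (red) and the WT library (blue), with exact Poisson 95% intervals and grey bands over the B-lineage clusters. Cxcr5 and Ccr6 fall to a few CPM in most clusters from 9 onward, whereas Gpr183 is at 78.2 CPM or more in every cluster over both libraries.

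In the B cell-like class no receptor differed between the libraries by 1.5-fold. Cxcr5, Ccr7 and Gpr183 were lower in 5XFAD, and Ccr6 was slightly higher. Of 9681 genes with at least 50 UMIs, 15.0% were lower by 1.5-fold and 4.62% higher, against 0 of 4 receptors each way. That is 1454 genes lower and 447 higher, or 962 and 792 under median-of-ratios scaling, where the receptors kept their directions. All 4 passed the minimum of 50 UMIs. The median log2 ratio of 5XFAD over WT was -0.12 over those genes, and 61.9% of them were lower in 5XFAD. Of all genes, 22.5% had a ratio below that of Cxcr5, 33.8% below that of Gpr183, 38.0% below that of Ccr7 and 73.3% below that of Ccr6. The receptors thus lie inside the range of most genes. Within single clusters the median of all genes lay between -0.13 and 0.08. Wherever a pair of levels is given as against each other, 5XFAD comes first. In such sums, fewer cells that express a gene and less RNA per cell cannot be told apart.

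**Figure D2:**
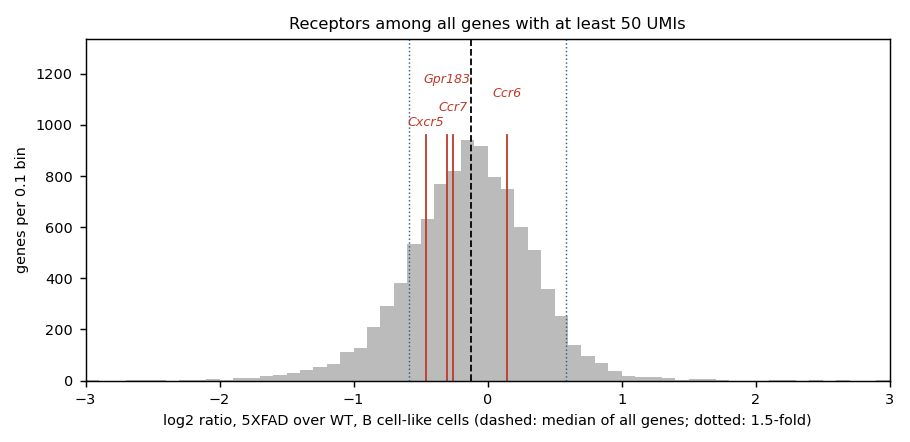
Number of genes (y axis) by log2 ratio of 5XFAD over WT in the B cell-like class (x axis, bins of 0.1), for 9681 genes with at least 50 UMIs. Red lines mark the 4 receptors, the dashed line the median of all genes (-0.12) and the dotted lines 1.5-fold, and all 4 red lines lie between the dotted ones.

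Cxcr5, the follicle receptor, was lower in 5XFAD in every B-lineage cluster. It lies on the minus strand of chr9:44511787-44561877 (mm10) and overlaps Bcl9l on the other strand. Whether strand was used in counting is not stated in the labels. In the B cell-like class Cxcr5 was at 114 CPM in 5XFAD and at 156 CPM in WT. The WT library was the higher, with a log2 ratio of -0.46 (-0.56 to -0.36), or -0.33 after subtracting the median of all genes. Cxcr5 was below WT in 6 of 6 B cell-like clusters, as were 20.5% of the genes, while 10.7% were above WT in each. Those ratios ran from -0.64 in cluster 0 (87.2 against 136 CPM) to -0.24 in cluster 2 (156 against 183 CPM), with all 6 intervals below 0. Clusters 0 and 7 were past 1.5-fold, and there 14.5% and 16.8% of genes were lower by as much. In cluster 7 Cxcr5 was at 186 against 287 CPM (-0.63, -0.96 to -0.31). Cluster 6 was the B-lineage cluster whose interval held 0 (132 against 142 CPM, -0.11, -0.49 to 0.27).

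Fewer 5XFAD cells held a Cxcr5 UMI at equal depth. After thinning each cell to 3000 UMIs, 2327 and 2454 cells remained, leaving out 37 and 84. Cxcr5 was then found in 27.5% (25.7 to 29.3) of cells in 5XFAD and 34.4% (32.6 to 36.4) in WT. Before thinning the shares were 41.7% and 48.4%, at medians of 5086.5 and 4783.5 UMIs per cell. ILC2-like cells, which should lack the gene, held it in 0 of 129 thinned cells in 5XFAD, which at 3 counts of the total allows up to 2.33%, and in 1 of 106 in WT, at medians of 5559 and 6268.5 UMIs. Most positive B cells held a single UMI. Of all cells of the class, 28.6% in 5XFAD and 29.7% in WT had exactly 1 Cxcr5 UMI, and 3.43% and 6.97% had 3 or more.

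Over both libraries Cxcr5 was highest in cluster 7 (234 CPM, 209.6 to 261), which stood apart from cluster 5 (181 CPM, 165 to 199). From cluster 5 down to ILC3-like cells (84.7 CPM, 53.1 to 128) each neighbour in the order overlapped the next. Regulatory T cell-like cells came after a gap (28.8 CPM, 19.8 to 40.5), and the remaining clusters outside the B lineage were lower, with the intervals of clusters 15 and 14 overlapping it. In regulatory T cell-like cells 5XFAD held 9 Cxcr5 UMIs and WT 24, or 15.3 against 43.0 CPM (-1.49, -2.78 to -0.33). There 10.5% of genes were lower by 1.5-fold.

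Ccr7, the T cell zone receptor, is on the minus strand of chr11:99144196-99155077. In the B cell-like class it was at 564 CPM in 5XFAD and at 674 CPM in WT. WT was the higher, with a log2 ratio of -0.26 (-0.30 to -0.21), or -0.13 after subtracting the median of all genes. Each of the 6 clusters had a ratio below 0, from -0.33 in cluster 5 (713 against 896 CPM) to -0.11 in cluster 4 (473 against 511 CPM), whose interval held 0. At equal depth the shares of cells with a Ccr7 UMI overlapped, at 74.9% (73.1 to 76.7) in 5XFAD and 76.0% (74.3 to 77.7) in WT. They were 87.3% and 85.1% before thinning. Gamma delta T cell-like cells gave the lowest shares, 1 of 75 and 2 of 47 thinned cells, at medians of 6176 and 5795 UMIs.

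Cluster 6, led by Igha, went the other way for Ccr7. Its level was 743 CPM in 5XFAD and 552 CPM in WT (0.43, 0.25 to 0.61), and 81.7% against 62.3% of thinned cells held a UMI. The libraries also differed in the make-up of this cluster. Igha was found in 41.0% of 166 cells in 5XFAD and in 55.3% of 114 in WT. Jchain, whose product joins polymeric IgA, was found in 15.1% and 24.6%. Among thinned cells without Jchain, 118 of 143 in 5XFAD (82.5%) and 65 of 97 in WT (67.0%) held Ccr7. Among those with Jchain the numbers were 16 of 21 and 6 of 17. The cells were not split by Igha, and the part of make-up in the ratio was not tested.

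Outside the B lineage Ccr7 was highest in cluster 14 (816 against 1027 CPM, -0.33, -0.55 to -0.12). Over both libraries cluster 14 (921 CPM, 855 to 989.6) overlapped cluster 5 (851 CPM, 815 to 889), and cluster 5 overlapped cluster 7 (798 CPM, 752 to 847). A gap followed down to cluster 1 (679 CPM). ILC3-like cells had 373 CPM, regulatory T cell-like cells 256 CPM and gamma delta T cell-like cells 7.93 CPM.

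The direction of Ccr7 also differed among the smaller clusters. In regulatory T cell-like cells it was higher in 5XFAD (304 against 206 CPM, 0.56, 0.21 to 0.91), although similar shares of thinned cells held a UMI (18.9% and 20.6%). It was lower in ILC2-like cells (13.4 against 36.8 CPM, -1.46, -2.68 to -0.35) and in NK or ILC1-like cells (5.37 against 37.0 CPM, -2.78, -5.19 to -1.01), in both of which it was scarce. Leaving out cells with 3 or more UMIs of the B cell transcripts Cd79a, Cd79b and Ms4a1 took 3 WT cells from the NK or ILC1-like cluster and left 5 of its 18 WT UMIs, so that the interval of the log2 ratio held 0 (5.37 against 10.7 CPM, interval -3.69 to 1.36). In ILC2-like cells the ratio was then -1.74. In these clusters 9.43% and 10.5% of genes were lower by 1.5-fold. In cluster 15 it was higher in 5XFAD (257 against 113 CPM, 1.18), as were 17.3% of genes by 1.5-fold. A single 5XFAD cell held 44 of the 49 UMIs of that cluster, and leaving out the top cell in both libraries gave a ratio of -1.66. Leaving out cells with 3 or more UMIs of the B cell transcripts instead took the WT count from 25 to 2 UMIs and the ratio to 4.63, so cluster 15 gives no steady direction.

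Promoter sequence is shown for Ccr6 and Gpr183, the 2 members with an entry in the RefSeq table used (GRCm38.p6). Each run is the 250 bases before a start site, 5′ to 3′ on the strand of the gene. Capitals mark the octamer that POU factors of B cells such as Oct-2 bind. The Ccr6 run is chr17:8235793-8236042 and the Gpr183 run chr14:121965194-121965443.
Ccr6: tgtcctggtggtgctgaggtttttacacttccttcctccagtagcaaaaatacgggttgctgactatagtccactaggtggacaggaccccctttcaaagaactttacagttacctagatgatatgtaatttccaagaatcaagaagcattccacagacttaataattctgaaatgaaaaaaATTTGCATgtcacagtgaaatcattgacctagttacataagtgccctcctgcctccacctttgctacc
Gpr183: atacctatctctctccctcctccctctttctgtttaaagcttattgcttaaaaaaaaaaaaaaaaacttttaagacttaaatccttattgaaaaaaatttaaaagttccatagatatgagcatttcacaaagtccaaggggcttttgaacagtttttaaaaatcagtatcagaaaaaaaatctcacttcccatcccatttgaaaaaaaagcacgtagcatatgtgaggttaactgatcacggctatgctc
The octamer ATTTGCAT starts 68 bases before the Ccr6 start site. It is in neither the Gpr183 run nor the run before a second Ccr6 start (chr17:8242276-8242525). On either strand, 526 of 32851 promoter runs of this length hold it (1.60%). For NF-kB a fixed pattern was searched, and other forms of its site were not. The run before the second Ccr6 start holds a near match, which departs from that pattern by a base. Near matches to other motifs also occur in the Ccr6 runs, and they were not searched for. As spelled for the search, none of the 7 motifs other than the octamer was in any of the 3 runs. They were TGANTCA (AP-1, in 6.75% of all runs), TGACGTCA (CRE, 1.55%), CAGNTG (E box, 44.8%), GAGGAAGT (PU.1, 2.44%) and GCGTGGGCG (EGR, 0.536%), with an NF-kB site (0.356%) and a heat shock element (0.466%). A match describes letters and is not a measured site.

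Ccr6, the CCL20 receptor, is on the plus strand of chr17:8236043-8257141. In the B cell-like class it was at 175 CPM in 5XFAD and at 158 CPM in WT. Here 5XFAD was the higher, with a log2 ratio of 0.14 (0.05 to 0.23), or 0.27 after subtracting the median of all genes. The difference did not run through the class: 3 of 6 clusters were above 0 and 3 below, and the interval of cluster 1 alone lay above 0 (238 against 199.6 CPM, 0.25, 0.09 to 0.42). Cluster 1, led by Cystm1 and Dmxl1, made up 27.3% of the class in 5XFAD and 18.6% in WT. With clusters weighted alike in both libraries the ratio was 0.06. At equal depth the shares overlapped, at 34.5% (32.5 to 36.4) in 5XFAD and 33.7% (31.8 to 35.6) in WT, against 48.1% and 46.1% before thinning. ILC2-like cells held Ccr6 in 0 of 129 and 1 of 106 thinned cells.

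Ccr6 was highest in cluster 6 (277 CPM, 253 to 303), apart from every other cluster, and was higher in 5XFAD there. Its level was 321 CPM in 5XFAD and 215 CPM in WT (0.58, 0.30 to 0.86), and 57.3% against 36.8% of thinned cells held a UMI. Among thinned cells without Jchain, 80 of 143 (55.9%) and 38 of 97 (39.2%) held Ccr6, and among those with it 14 of 21 and 4 of 17. With a Cd80 UMI the numbers were 24 of 35 (68.6%) and 3 of 18 (16.7%). Without one they were 70 of 129 (54.3%) and 39 of 96 (40.6%). The part of make-up was not tested here either. Mki67, a proliferation gene, was found in 4 and 7 cells of cluster 6.

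After cluster 6, Ccr6 declined through clusters 1 (222 CPM), 7 (212 CPM) and 2 (190.2 CPM) to ILC3-like cells (150.1 CPM, 107 to 205), with neighbours overlapping. Clusters 0, 4, 3 and 5 followed, from 148 down to 123 CPM. Regulatory T cell-like cells had 99.6 CPM, 82.1 to 119.6, with 111 CPM in 5XFAD and 87.8 CPM in WT and an interval that held 0. T cell-like cells had 29.6 CPM, and the remaining clusters outside the B lineage 10.0 CPM or less. In T cell-like cells the libraries differed by more than 1.5-fold (21.2 against 39.2 CPM), as did 11.4% of genes that were lower, but the interval held 0 (-0.89, -1.92 to 0.10).

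Gpr183, the oxysterol receptor, was lower in 5XFAD over the B cell-like class but not in each of its clusters. It lies on the minus strand of chr14:121952551-121965195, inside Ubac2 on the other strand, and Ubac2 itself was at 24.1 CPM in this class. Gpr183 was at 232 CPM in 5XFAD and at 286 CPM in WT. WT was the higher, with a log2 ratio of -0.31 (-0.38 to -0.23), or -0.18 after subtracting the median of all genes. At equal depth 36.4% (34.4 to 38.4) and 43.7% (41.7 to 45.7) of cells held a UMI, against 47.2% and 54.9% before thinning. No cluster lacked the gene. Cluster 11, led by Cd7 and Klrd1, had the lowest level, with thinned shares of 15.3% and 19.8% at medians of 6031 and 5905 UMIs.

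The B-lineage clusters went both ways. Gpr183 was lower in 5XFAD in clusters 0 (205 against 299 CPM, -0.55), 3 (145 against 185 CPM, -0.35) and 4 (109 against 152 CPM, -0.48), with intervals below 0. It was higher in cluster 1 (322 against 273 CPM, 0.24, 0.10 to 0.38) and in cluster 7 (897 against 625 CPM, 0.52, 0.34 to 0.70). In clusters 2, 5 and 6 the interval held 0.

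**Figure D3:**
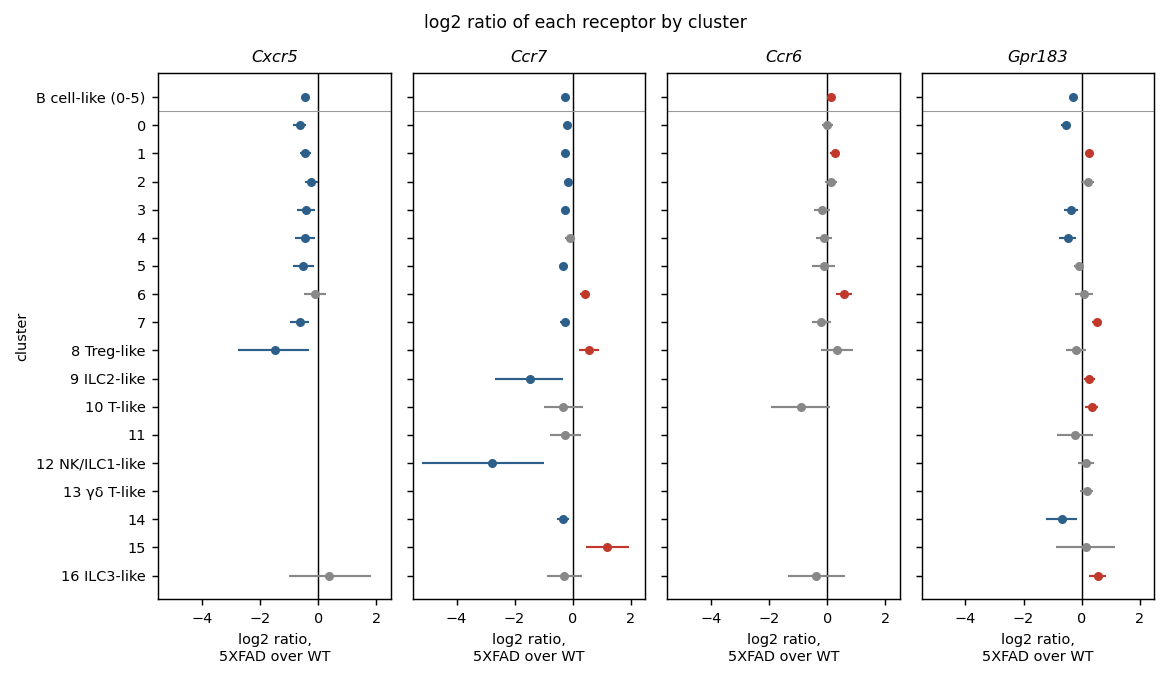
The log2 ratio of 5XFAD over WT (x axis) with its exact 95% counting interval for each receptor, in the B cell-like class and in each cluster with at least 20 UMIs of the gene (y axis); blue marks intervals below 0, red above 0 and grey those that hold 0. Cxcr5 lies below 0 in all 8 B-lineage clusters, Ccr7 and Ccr6 lie above it in cluster 6, and Gpr183 lies on both sides.

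In the B cell-like class Gpr183 was higher in cells that held stress genes, but in 5XFAD it was not within clusters 0 to 4. Cluster 5, led by the heat shock genes Hspa1a and Hspa1b and by Jun, held 119 cells in 5XFAD and 396 in WT. Its Gpr183 level was high in both libraries (578 against 619 CPM, -0.10, -0.28 to 0.08). Without that cluster the ratio of the class was -0.10, and with clusters weighted alike it was -0.12. Over the class, 447 cells in 5XFAD (18.9%) and 1219 in WT (48.0%) held a UMI of Jun, Hspa1a or Hspa1b.

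The direction of Gpr183 turned in cells without such a UMI. They had 219 against 197 CPM in 5XFAD and WT (0.15, 0.05 to 0.25), whereas cells with one had 289 against 383 CPM (-0.41, -0.53 to -0.28). At equal depth the shares of cells with a Gpr183 UMI were 35.3% and 35.1% in the first and 41.0% and 53.0% in the second. In clusters 0 to 4, 5XFAD was at 201 CPM in cells with such a UMI and at 217 CPM in cells without. WT was there at 283 CPM with and 195 CPM without. In cluster 5, cells with such a UMI had 683 against 632 CPM (0.11, -0.08 to 0.30). The other 3 receptors kept their direction in cells without such a UMI. Cxcr5 was at 116 against 157 CPM (-0.44), Ccr7 at 559.8 against 657 CPM (-0.23) and Ccr6 at 179.9 against 163 CPM (0.14). In cells with one, Cxcr5 (-0.56) and Ccr7 (-0.25) were again below WT, whereas the interval of Ccr6 held 0 (152 against 153 CPM, -0.01, -0.19 to 0.17). This split was chosen after the data were seen.

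The stress genes themselves were mostly lower in 5XFAD. Of 20 genes of the dissociation and stress list, 19 were measured in the B cell-like class and 16 of them were lower in 5XFAD, 11 by 1.5-fold, beside 61.9% and 15.0% of all genes. Their median log2 ratio was -0.61, against -0.12 over all genes. Hspa1a (16.7 against 108 CPM, -2.69) and Jun (69.9 against 406 CPM, -2.54) were the lowest, while Ier2 (0.43) was higher and Nr4a1 (0.05) nearly level. The whole list summed to 5499 CPM in 5XFAD and 7696 CPM in WT. Beyond the split by 3 of these genes, the part of the list in the receptor ratios was not tested.

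**Figure D4:**
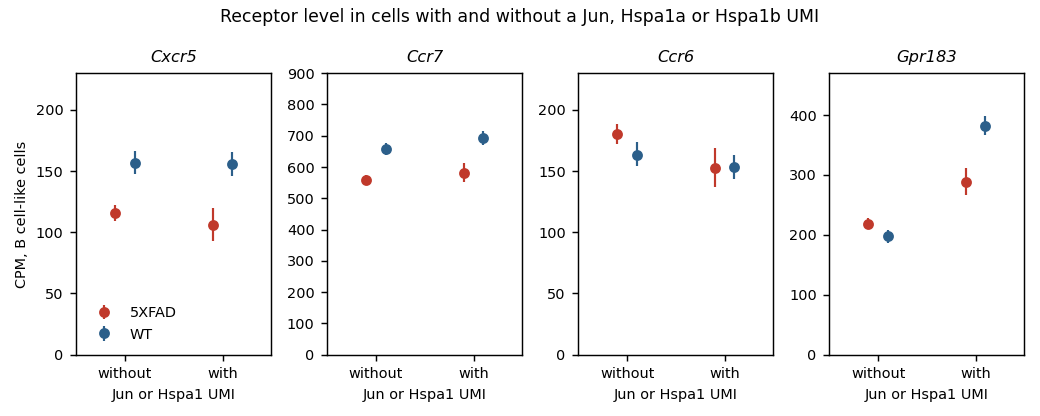
CPM of each receptor (y axis) in B cell-like cells without and with a UMI of Jun, Hspa1a or Hspa1b (x axis), in 5XFAD (red) and WT (blue), with exact Poisson 95% intervals. Gpr183 is above WT in 5XFAD cells without such a UMI and below it in cells with one, while Cxcr5 and Ccr7 are below WT in both and Ccr6 is above WT in the first, with overlapping intervals in the second.

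From cell to cell, Gpr183 was found more often in WT cells that held an early-response gene. In 5XFAD the intervals stood apart for Myc, Nr4a1 and the heat shock gene Hspa1a but overlapped for Jun and Egr1. With a Jun UMI against without, the thinned shares of cells holding Gpr183 were 57.2% (53.8 to 60.4) with and 36.0% (33.6 to 38.4) without in WT, and 42.0% (36.2 to 47.9) with and 35.6% (33.5 to 37.7) without in 5XFAD. For Myc, a growth gene induced through the antigen receptor, they were 57.5% (52.7 to 62.3) with and 40.8% (38.6 to 43.0) without in WT, and 48.1% (43.2 to 53.1) with and 33.9% (31.8 to 36.1) without in 5XFAD. For Egr1 they were 53.7% (48.0 to 59.3) with and 42.2% (40.1 to 44.3) without in WT, and 45.6% (37.4 to 54.0) with and 35.8% (33.8 to 37.8) without in 5XFAD. For Nr4a1 they were 46.4% (43.7 to 49.1) with and 40.4% (37.5 to 43.4) without in WT. In 5XFAD they were 39.5% (36.8 to 42.2) with and 32.6% (29.8 to 35.5) without Nr4a1. For Hspa1a they were 58.4% (52.3 to 64.3) with and 41.8% (39.8 to 43.9) without in WT. In 5XFAD, 21 of 31 cells with Hspa1a held Gpr183 (67.7%, 48.6 to 83.3), against 36.0% (34.0 to 38.0) without. Cluster 7, led by the Egr genes and Myc, had the highest Gpr183 level of the B lineage (767 CPM, 721 to 814). Such gaps were not particular to Gpr183 and went both ways. In WT, Ccr7 was in 81.3% of cells with Nr4a1 and 69.6% without, and Cxcr5 in 37.4% and 30.8%. With Hspa1a, WT cells held Ccr7 less often (60.6% with and 78.0% without). In 5XFAD, Ccr6 was in 26.4% of cells with Jun and 35.6% without, and in 40.5% with Myc and 33.2% without. These intervals stood apart, and those of the remaining pairs without Gpr183 overlapped.

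Outside the B lineage Gpr183 was higher in 5XFAD in 6 of 9 clusters, and the interval lay above 0 in 3 of the 9. Summed over T cell, innate lymphoid and NK clusters it stood at 481 CPM in the 5XFAD library and 403 CPM in WT (0.26, 0.16 to 0.35). ILC3-like cells stood highest (1967 against 1338 CPM, 0.56, 0.27 to 0.85), and all 25 and 17 cells held a UMI before thinning. ILC2-like cells (625 against 519 CPM, 0.27, 0.06 to 0.47) and T cell-like cells (528 against 418 CPM, 0.34, 0.10 to 0.57) had intervals above 0. Gamma delta T cell-like cells (893 CPM) and NK or ILC1-like cells (426 CPM) had intervals that held 0. Cluster 14 was lower in 5XFAD (129 against 207 CPM, -0.68, -1.21 to -0.16), as were 13.0% of genes by 1.5-fold. Regulatory T cell-like cells (239 against 272 CPM, -0.19) and cluster 11 (72.5 against 85.4 CPM, -0.24) were below WT with intervals that held 0.

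The order of Gpr183 over both libraries was led by ILC3-like cells (1701 CPM, 1546 to 1867), gamma delta T cell-like cells (893 CPM, 827 to 963) and cluster 7, each apart from the next. Cluster 5 (609 CPM) overlapped ILC2-like cells (575 CPM), and T cell-like cells (477 CPM) overlapped NK or ILC1-like cells. Cluster 15 (89.9 CPM) and cluster 11 (78.2 CPM) came last and overlapped.

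The levels outside the B lineage were set beside 3 B cell transcripts, Cd79a, Cd79b and Ms4a1, since free RNA from B cells would carry its genes in 1 ratio. Per 100 UMIs of these transcripts, clusters 0 to 7 held 3.31 to 9.44 Cxcr5 UMIs. Clusters 9 to 15 held 2.38 to 10.4, with intervals that overlap that range. At so few UMIs, Cxcr5 made by these cells cannot be told apart from background. Regulatory T cell-like cells (44.6, 30.7 to 62.6) and ILC3-like cells (220.0, 138 to 333) were above the B-lineage range. For Ccr6 the B-lineage range was 3.96 to 9.86, and regulatory T cell-like (154), T cell-like (34.2) and ILC3-like cells (390.0) were above it. In clusters 9 and 11 to 15 Ccr6 was at 2.73 to 7.34 and cannot be told apart from background either.

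Ccr7 and Gpr183 exceeded the B cell ratio more widely. Ccr7 reached 675 per 100 in cluster 14 and 970.0 in ILC3-like cells, against 16.2 to 32.2 in the B lineage. The intervals of NK or ILC1-like (43.8, 27.1 to 66.9) and gamma delta T cell-like cells (14.3, 5.24 to 31.1) overlapped that range, and that of ILC2-like cells (34.8 to 69.5) began just above it. Gpr183 was at 33.6 to 4420.0 per 100 in clusters 8 to 16, against 4.54 to 30.9 in the B lineage, and cluster 15 was the lowest (33.6, 23.7 to 46.4).

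**Figure D5:**
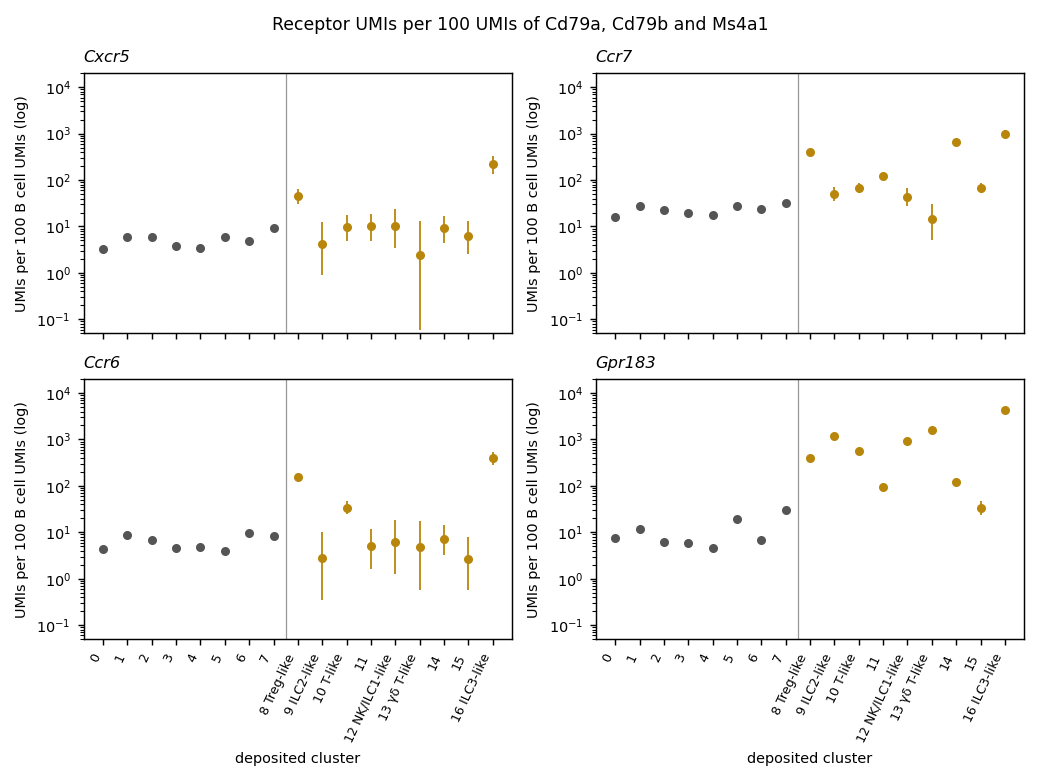
UMIs of each receptor per 100 UMIs of Cd79a, Cd79b and Ms4a1 (y axis, logarithmic) in the 17 clusters (x axis), both libraries together, with exact Poisson 95% intervals; grey points are B-lineage clusters and gold points the others. For Cxcr5 and Ccr6 most gold points lie near the grey ones, with regulatory T cell-like and ILC3-like cells above, and for Gpr183 every gold point lies above the B-lineage range of 4.54 to 30.9.

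Across the 17 clusters, Cxcr5 and Ccr6 had the most similar patterns of the 4. Pearson's r of log2(CPM + 10) was 0.94 for Cxcr5 and Ccr6, 0.85 for Cxcr5 and Ccr7 and 0.79 for Ccr7 and Ccr6. Gpr183 had an r of 0.01 with Cxcr5, -0.24 with Ccr7 and 0.07 with Ccr6. The clusters share their libraries, so these values are descriptions. Of 7961 genes ranked, those most like Cxcr5 were Fam43a (0.97), Snx9, Srsf10, Ccr6 and Pik3r4. Those most like Ccr6 were Cxcr5, Lemd3, Ptbp2, Mif4gd and Riox2. Nearest to Ccr7 came Ppm1m (0.92), S1pr1, Srsf10, Brox and Aff3, and nearest to Gpr183 Agpat1 (0.86), Rhot2, B3galt2, Arl5b and Traf3ip2. Agpat1, Rhot2 and B3galt2 were scarce, with medians of 9.49, 5.17 and 4.35 CPM over clusters 0 to 5. Those lie below the 10 CPM added before the log, so their r rests on few UMIs.

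Within the B cell-like class, having a UMI of a receptor told little about having another. At equal depth the shares of cells with Ccr6 were 33.2% with and 35.0% without a Cxcr5 UMI in 5XFAD, and 34.6% with and 33.2% without in WT. Of the 12 ordered pairs in each library, the widest gap in WT was for Gpr183 given Ccr7. The shares were 45.2% (43.0 to 47.5) with and 38.8% (34.8 to 42.8) without, and these intervals stood apart. In 5XFAD it was for Gpr183 given Ccr6, at 40.0% (36.6 to 43.5) with and 34.5% (32.1 to 36.9) without. There, and in the remaining pairs of both libraries, the intervals overlapped. All 4 receptors were found together in 2.92% of 5XFAD and 4.24% of WT cells, and none in 8.59% and 6.64%. At 3000 UMIs a cell, a missing UMI does not show a missing transcript.

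Most ligands had few UMIs in these CD45+ cells. Stroma and epithelium, which are known to make most of them, are not the cells sorted for. Over all cells of 5XFAD and WT there were 0 and 2 UMIs of Cxcl13, 1 and 0 of Ccl19, 3 and 2 of Ch25h and 0 and 0 of Cyp7b1. Ccl20, the CCR6 ligand, had 17 and 21 UMIs, of which 30 were in regulatory T cell-like cells. Ccl21a had 446 and 221 UMIs, 648 of them in cluster 15 and 433 in a single cell. Cluster 15, led by Lyz2 and Il1b, held 5 of 5 macrophage markers (6353 CPM summed) and 3 of 3 neutrophil markers (617 CPM summed). It also held 3 of 3 stroma markers (369 CPM summed) and 3 of 3 epithelium markers (430.0 CPM summed). Of the 10 ligand and enzyme genes, 1 reached 50 UMIs in the B cell-like class, Cyp27a1 (2.91 against 3.63 CPM, -0.32).

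Most genes of the signalling below such receptors were lower in the 5XFAD B cell-like class, as were most genes measured. Of 34 genes for G proteins, their regulators, arrestins and the motility machinery, 28 were lower and 6 higher, 10 of them lower and 0 higher by 1.5-fold. Of all genes 61.9% were lower, with 15.0% lower and 4.62% higher by 1.5-fold. Their median log2 ratio was -0.40, against -0.12 over all genes. Rgs1, which shortens G protein signals, was lowest (16.6 against 39.1 CPM, -1.24), followed by Rgs14 (-1.19) and the arrestin gene Arrb1 (-1.05). The highest ratios were those of Gna13 (329.9 against 291 CPM, 0.18) and Arhgef1 (0.16), whose products confine B cells to germinal centres, and of Rap1b (0.14), which acts on integrins.

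Of 16 other trafficking receptors 12 were measured, 10 lower and 2 higher, with a median of -0.38 against -0.12 over all genes, 61.9% of which were lower. Cd69, which holds lymphocytes in tissue by opposing S1PR1, was the lowest (149.6 against 361 CPM, -1.27), before the cannabinoid receptor gene Cnr2 (30.0 against 50.5 CPM, -0.75) and the integrin gene Itga4 (-0.55). S1pr4 (0.63) and Itgb2 (0.11) were above 0 and Cd44 was at -0.04. Of 11 follicular and marginal zone genes 10 were lower, 3 by 1.5-fold, with a median of -0.41, where 61.9% of all genes were lower and 15.0% by 1.5-fold. Those 3 were Cr2, a complement receptor (122 against 237 CPM, -0.96), Ighd (-0.72) and Ighm (-0.65). Cd9, a marginal zone marker, was higher (9.69 against 5.52 CPM, 0.81), Myof was level (-0.00) and Fcer2a, a follicular marker, was at -0.28.

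Of 20 transcription factors of mature B cells 15 were lower, 6 by 1.5-fold, with a median of -0.41. The same shares over all genes were 61.9% and 15.0%, with a median of -0.12. Pou2f2, which encodes Oct-2, was lowest (113 against 242 CPM, -1.10), then Irf8 (-0.94) and Spib (-0.77). Ebf1 (1880.0 against 1599 CPM, 0.23), Id3 (0.17) and Pou2af1, the coactivator of Oct-2 (0.16), were above 0. Germinal centre genes were scarce: 3 of 11 had 50 UMIs, with Mef2b (3.23 against 1.81 CPM, 0.83) and Neil1 (64.8 against 42.7 CPM, 0.60) higher and Bcl6 (19.5 against 26.4 CPM, -0.44) lower.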

How the data were processed

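Libraries of sorted colon CD45+ cells, 1 for 5XFAD and 1 for WT, were analysed. Cell Ranger 6.0.1 and mm10 are named in the submitters' processing notes. The authors deposited natural log values, ln(1 + counts per 10000 UMIs), and a metadata table with each cell's total UMI count, its percent mitochondrial UMIs and its cluster. Later filters, doublet handling and use of strand were not given in the sources used here, and no doublet caller was run. AD in the metadata was taken as 5XFAD, the library that is not WT.

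Counts were restored from the deposited log values and count totals: 100% of 11758401 nonzero values were whole within 1e-06, and sums matched in 6886 of 6886 cells. Counts were summed per cluster and library (Python 3.11.15, scipy 1.17.1). Ratios carry exact conditional binomial intervals, levels Poisson intervals and shares Clopper-Pearson intervals, all at 95%. Ratios need 50 UMIs over both libraries in the class, or 20 in a cluster. Calculations were tested on simulated data. Named beside the 4 receptors are the 5 genes of highest r among those with 200 UMIs, and up to 3 highest and 3 lowest of each list. Members, lists and alternatives were chosen with earlier results of these data known. The set of B cell transcripts beside which levels were read was reduced to 3 after the data were seen, and some items are not reported here. Positions are from GENCODE vM21.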

Additional observations from a re-analysis of the deposited data

Results flagged for a closer look

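Gpr183 had opposite directions in the classes: its log2 ratio over T cell, innate lymphoid and NK clusters (0.26) exceeded that of the B cell-like class (-0.31) by 0.56. Without cells holding a Jun, Hspa1a or Hspa1b UMI the B cell-like ratio was above 0 as well (0.15, 0.05 to 0.25). Such cells were not left out of the T cell, innate lymphoid and NK clusters, so the classes were not compared alike. Within the B lineage the Gpr183 ratio was above 0 in cluster 7 (0.52) and below 0 in cluster 0 (-0.55), a gap of 1.07. Outside it, ILC3-like cells (0.56) and cluster 14 (-0.68) were 1.24 apart. Ccr7 was above 0 in cluster 6 (0.43) and below 0 in cluster 5 (-0.33), a gap of 0.76. It was also above 0 in regulatory T cell-like cells (0.56) and below 0 in NK or ILC1-like cells (-2.78, from 3 and 18 UMIs), a gap of 3.34. Without cells holding 3 or more UMIs of the B cell transcripts the NK or ILC1-like ratio came from 3 and 5 UMIs (5.37 against 10.7 CPM) and its interval, -3.69 to 1.36, held 0, while the ratio of regulatory T cell-like cells was 0.65. With all cells included the counting intervals lay in each case on opposite sides of 0, and none of these differences was tested.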

How the results depend on the processing

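The ratio of each receptor in the B cell-like class was recomputed under 11 alternatives, 2 of them chosen after seeing the data. Cxcr5 ran from -0.46 to -0.33, Ccr7 from -0.27 to -0.13 and Ccr6 from 0.06 to 0.27, with their direction kept, and Gpr183 from -0.34 to 0.15. Median-of-ratios scaling gave -0.33 (Cxcr5), -0.13 (Ccr7), 0.27 (Ccr6) and -0.18 (Gpr183). Without cluster 5, Ccr7 was at -0.20 and Gpr183 at -0.10. Gpr183 was at -0.17 with clusters 6 and 7 added, at -0.12 with a common cluster mix and at 0.15 without cells holding a Jun, Hspa1a or Hspa1b UMI, where it reversed. The cause was not tested.

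Shares of cells with a UMI moved with the depth kept. Thinned to 2000 UMIs they were, in 5XFAD and WT, 19.7% and 26.1% (Cxcr5), 62.7% and 64.4% (Ccr7), 26.0% and 25.4% (Ccr6) and 29.5% and 34.7% (Gpr183). Unthinned they were 41.7% and 48.4%, 87.3% and 85.1%, 48.1% and 46.1% and 47.2% and 54.9% in the same order, and Ccr7 was then the higher in 5XFAD. Without cluster 5 the WT share of Gpr183 was 39.0%.

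By 1.5-fold, 1454 genes were lower and 447 higher in 5XFAD. These counts became 3154 and 1418 at a ratio of 5 to 4, 377 and 78 at 2-fold, 1819 and 672 with at least 20 UMIs, 886 and 284 with at least 200 UMIs and 962 and 792 under median-of-ratios scaling. The Ccr7 ratio in cluster 15 reversed to -1.66 once the top cell of each library was left out and was 4.63 without cells of 3 or more B cell UMIs, which also took the interval of cluster 12 across 0 (-3.69 to 1.36). By Spearman's rho 2 of the 5 genes most like Cxcr5, Ccr7 and Ccr6 were kept, and 4 of 5 for Gpr183.

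No paired analysis was possible because each genotype is 1 pooled library. Small clusters (25 and 17 ILC3-like cells) and scarce genes (9 and 24 Cxcr5 UMIs in regulatory T cell-like cells) rest on few molecules.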

Other observations

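Some genes split the receptor-bearing cells of smaller clusters outside the B lineage. Of 128 pairs of a partner gene and a receptor looked at in clusters 8, 10, 14 and 16, 5 had intervals that stood apart. These 5 were picked after their values were seen, over both libraries at 3000 UMIs a cell, and cells of a library are not replicates. In regulatory T cell-like cells Ccr7 was found in 13 of 32 cells with a UMI of S1pr1 (40.6%, 23.7 to 59.4) and 31 of 192 cells without (16.1%, 11.2 to 22.1); S1pr1 encodes the receptor for exit from tissue. It was found in 4 of 66 cells with a UMI of Il1rl1 (6.06%, 1.68 to 14.8) and 40 of 158 cells without (25.3%, 18.7 to 32.8); Il1rl1 encodes the IL-33 receptor of tissue regulatory T cells. For Pdcd1, which encodes the checkpoint receptor PD-1, Ccr7 was found in 3 of 55 cells with a UMI of Pdcd1 (5.45%, 1.14 to 15.1) and 41 of 169 cells without (24.3%, 18.0 to 31.4). Cxcr5 was found in 8 of 37 cells with a UMI of Tcf7 (21.6%, 9.83 to 38.2) and 8 of 187 cells without (4.28%, 1.86 to 8.26); Tcf7 encodes a transcription factor of naive, memory and follicular T cells. In T cell-like cells Ccr6 was found in 6 of 13 cells with a UMI of Il17a (46.2%, 19.2 to 74.9) and 5 of 204 cells without (2.45%, 0.801 to 5.63).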
